A study of Danio rerio with 6 samples.

Results

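The genes described here serve nutrient uptake in lysosome-rich enterocytes and the neighbouring ileal-type enterocytes of the larval zebrafish gut. They were chosen by name, with earlier results of these data known: dab2, cubn, amn, lrp2a, lrp2b, dpep1, fabp6, slc10a2, tmigd1 and snx5, 10 genes in all. Of these, 7 have a row under their own symbol among the 15419 gene symbols of the count table. cubn, amn and lrp2b were not found under those symbols and are not analysed here. All 7 passed the expression filter, which left 11466 genes for testing.

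The study sequenced bulk RNA from whole dissected guts of wild-type Danio rerio larvae at 5 days post-fertilization, with 10 to 15 guts pooled in each library. In 3 libraries (labelled cut_wt, called transected here) the gut had been severed 24 h earlier. The labels of the other 3 (labelled wt, called control here) mention no surgery. Both groups carry replicate numbers 1, 2 and 3, and libraries with the same number are called a pair below. The titles also carry a second number, which both libraries share in pairs 2 and 3. The title of transected replicate 1 lacks it, so pair 1 cannot be compared in this way. The pools come from whole guts, so a lower value can mean fewer cells of a type or less RNA in each cell, and these cannot be told apart.

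Lysosome-rich enterocytes sit in the posterior part of the mid-intestine of fish and in the ileum of suckling mammals. They take up whole proteins from the lumen by endocytosis and break them down in a large lysosome. The scavenger receptors cubilin (cubn) and megalin (lrp2a, lrp2b) bind the cargo, amnionless (amn) carries cubilin to the surface, and the adaptor Dab2 links the receptors to clathrin. The other genes named serve what follows or runs beside this route: peptide cleavage at the brush border (dpep1), bile acid uptake and carriage (slc10a2, fabp6), adhesion at the brush border (tmigd1) and endosomal sorting (snx5).

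The libraries held 21525093 to 25131242 counts, and 1 count was worth 0.0384 to 0.0465 counts per 1000000 (CPM) after scaling. The first principal component of all genes tested held 47.0% of the variance. The replicate 1 libraries of both groups had its lowest values, at -33.1 (transected) and -44.3 (control). The other 4 were themselves widely spread, from 0.00368 to 48.5. The value of 48.5 is that of control replicate 2, further from the centre than either replicate 1 library, so this component does not single out pair 1. Fold changes of the 7 genes and counts over the related gene lists are therefore also given without the replicate 1 libraries. The fits without replicate 1 rest on 2 libraries per group. Gut identity was plain in all libraries: cdx1b, an intestinal transcription factor gene, lay between 103 and 132 CPM in each of them. The lysosomal protease gene ctsl.1 ranged from 293 to 1168 CPM in transected and from 2122 to 3185 CPM in control guts. The lysosomal peptidase gene lgmn ranged from 641 to 791 CPM and from 938 to 2214 CPM. RNA typical of these enterocytes was thus present in all libraries, although cubn, amn and lrp2b could not be checked.

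Of the 7 uptake genes, dab2 and dpep1 were lower in every transected library than in any control, while fabp6, slc10a2, tmigd1, lrp2a and snx5 overlapped between the groups. Groups that did not overlap on the lower side were found for 6.38% of all genes tested. By edgeR's quasi-likelihood test, adjusted over all genes, 0 of the 7 passed 0.05 in either direction. That call was made for 0% of all genes in the lower direction and 0.0174% in the higher. At an unadjusted p under 0.05, 2 of the 7 were lower (dab2 and dpep1), against 3.55% of all genes, and 0 were higher, against 4.32%. The median log2 fold change was -0.47 over the 7 and 0.00264 over all genes tested. Per-library CPM values are scaled to a common library size and are given below as mean ± SD over 3 libraries per group.

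**Figure D1:**
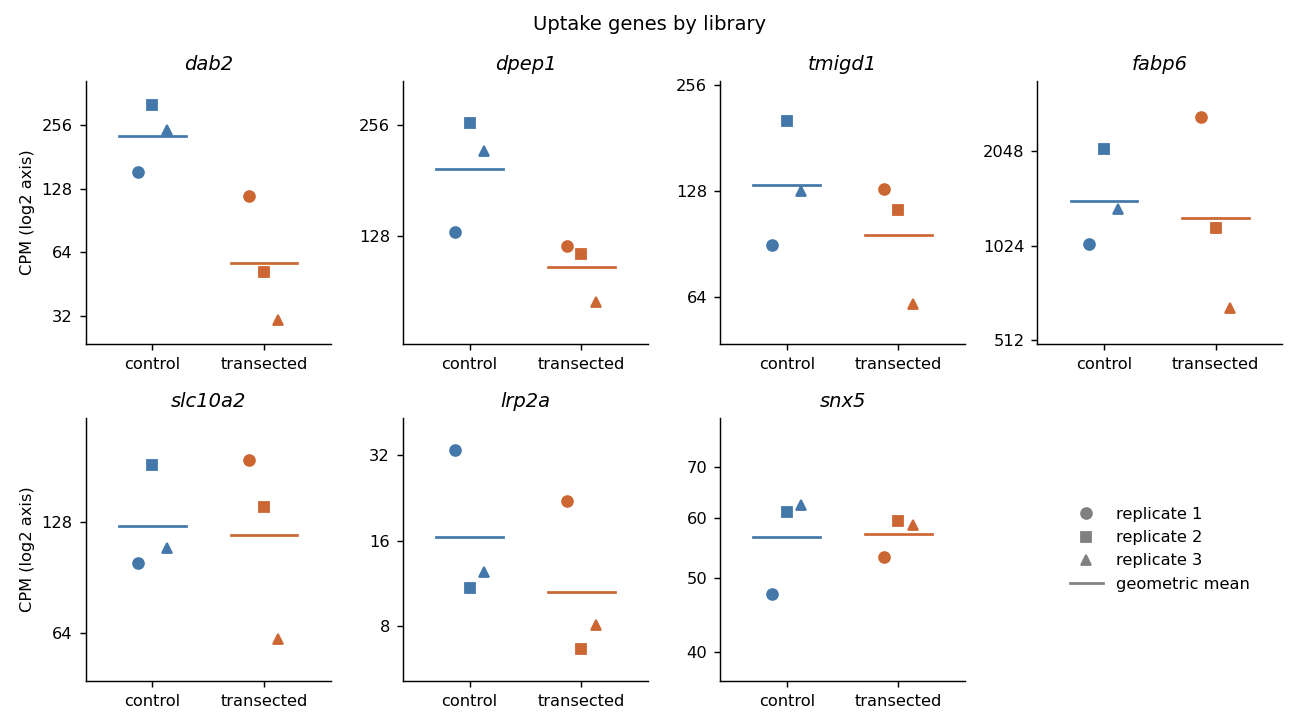
CPM of each uptake gene in every library (log2 axis, its range set per gene); colours mark the groups, marker shapes the replicate number, lines the geometric mean of 3 libraries. dab2 and dpep1 show no overlap between the groups, while transected replicate 1 has the highest value of all 6 libraries for fabp6, at 2642 CPM, and for slc10a2, at 189 CPM.

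dab2 encodes the endocytic adaptor that couples cubilin and megalin to clathrin-coated pits, and zebrafish lacking it take up less luminal protein. It stood at 118, 51.6 and 30.5 CPM in transected replicates 1, 2 and 3 and at 154, 319 and 243 CPM in control replicates 1, 2 and 3. Even its highest transected library lay below its lowest control, and both of those are replicate 1. The means were 66.7 ± 45.6 CPM in transected and 239 ± 82.6 CPM in control guts. The log2 fold change was -1.84 (SE 0.53, 95% interval -3.12 to -0.56), a 3.58-fold lower level, with an unadjusted p of 0.0122 and an adjusted p of 0.473 in edgeR. DESeq2 called it lower (adjusted p = 0.0132), as it did 0.584% of all genes. Over all 16 alternatives the adjusted p ran from 0.0132 to 0.997, and DESeq2 without the replicate block was the one that called it.

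The size of the dab2 difference depended on the pair. The transected to control ratio of dab2 CPM was 0.765 in pair 1, 0.162 in pair 2 and 0.125 in pair 3. Without the replicate 1 libraries dab2 reached -2.78 on the log2 scale (SE 0.35), and its adjusted p in edgeR was 0.0699. With the replicate number as a block it was -2.04 (SE 0.60), and the adjusted p was 0.317 in edgeR and 0.133 in DESeq2, so that the DESeq2 call was lost.

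lrp2a encodes one of the megalin receptors, the large endocytic receptor that also works in the kidney tubule (pronephros) of the larva. It was the least counted of the 7, with 148 to 824 counts per library. Its levels were 22.1, 6.68 and 8.06 CPM in transected and 33.3, 10.9 and 12.5 CPM in control replicates 1, 2 and 3. The replicate 1 library was the highest of its group in both groups, and the groups overlapped. The log2 fold change over all 6 libraries was -0.62 (SE 0.61, 95% interval -2.10 to 0.85) and the adjusted p in edgeR 0.879.

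Within pairs lrp2a was lower by nearly the same factor each time, at ratios of 0.662, 0.614 and 0.647. With the replicate number as a block the log2 fold change was -0.64 (SE 0.10). The edgeR adjusted p was then 0.179 (0.00140 unadjusted). DESeq2 with the block called lrp2a lower (adjusted p = 0.0360), together with dpep1, so that 2 of the 7 passed there against 1.08% of all genes. Without the replicate 1 libraries it was -0.67 (SE 0.16, edgeR adjusted p = 0.0955).

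Kidney genes differed between libraries, some of them in the same way as lrp2a. slc13a3, a dicarboxylate transporter gene, stood at 3.38, 0.812 and 1.25 CPM in transected and 6.47, 1.67 and 1.68 CPM in control replicates 1, 2 and 3, with pair ratios of 0.522, 0.485 and 0.746. slc22a2, an organic cation transporter gene, stood at 61.9, 29.4 and 29.4 CPM and at 96.7, 42.7 and 71.7 CPM, with ratios of 0.640, 0.689 and 0.410. Both were highest in the replicate 1 library of each group, as lrp2a was, and neither passed an unadjusted 0.05. This shape was not limited to kidney genes. The hepatocyte markers rbp4 and tfa had it too, with pair ratios of 0.811, 0.666 and 0.538 and of 0.438, 0.711 and 0.426, although not every hepatocyte marker did. The share of all genes with this shape was not counted. Other transporter genes of the kidney list went differently. slc13a1 stood at 33.4, 41.7 and 53.3 CPM in transected and 50.2, 45.8 and 34.3 CPM in control replicates 1, 2 and 3. slc6a19a.1 stood at 167, 545 and 550 CPM and at 464, 524 and 547 CPM, lowest in the replicate 1 library of each group. Other kidney genes stood out in single libraries. nphs1, a podocyte gene of the kidney filter, had 110 counts in control replicate 1 and 5 to 18 elsewhere. slc12a3, the salt transporter of the distal tubule, had 961 counts in transected replicate 3, 79 and 45 in the other transected libraries and 0 to 3 in controls. Of 30 pronephros markers 22 were found and 17 tested. At an unadjusted p under 0.05 3 were higher (slc12a3, slc12a10.3 and wt1b), against 4.32% of all genes, and 1 was lower, against 3.55%. The lower gene was slc26a1, an anion transporter gene, at 29.3 ± 3.55 against 37.1 ± 0.770 CPM (edgeR adjusted p = 0.534). The summed level of the kidney list was 1151 to 1754 CPM in transected and 1339 to 1856 CPM in control guts. Of this slc4a4a, a bicarbonate transporter gene that the gut also uses, made up 391 to 804 CPM, and slc6a19a.1 made up 167 to 550 CPM. How much of either came from kidney or from gut was not tested, so the sum does not measure kidney RNA. slc20a1a, a phosphate transporter gene of the tubule, had 0 counts in every library. The counting tool and annotation are not given, so here and below a count at or near 0 need not mean that the RNA was absent. The part of kidney RNA in the lrp2a, dab2 and dpep1 values was not tested.

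dpep1 encodes a membrane-anchored dipeptidase that in mammals cleaves dipeptides and leukotriene D4 at the brush border. It stood at 120, 115 and 85.2 CPM in transected and 132, 258 and 217 CPM in control replicates 1, 2 and 3. The 3 transected libraries lay close together and below all controls, although transected replicate 1 and control replicate 1 were only a ratio of 0.915 apart. The means were 107 ± 18.96 and 202 ± 64.4 CPM. The log2 fold change was -0.92 (SE 0.27, 95% interval -1.57 to -0.27), a 1.89-fold lower level, with an unadjusted p of 0.0129 and an adjusted p of 0.486 in edgeR.

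Ratios of dpep1 in pairs 2 and 3 were 0.446 and 0.393. Without the replicate 1 libraries dpep1 passed in edgeR, just inside the threshold (log2 fold change -1.25, SE 0.18, adjusted p = 0.04996), as 1 of the 7 against 1.5% of all genes called lower in that fit. DESeq2 missed it without the block (adjusted p = 0.0771) and called it with the block (log2 fold change -0.89, adjusted p = 0.0413). Over the 16 alternatives 2 called dpep1, with adjusted p from 0.0413 to 0.997. Of 21 other genes of dipeptide and peptide breakdown 9 were found and tested. After adjustment over all genes, 0 of these 9 passed in edgeR. An unadjusted p under 0.05 was reached by ggt1a, a gamma-glutamyl transferase gene (log2 fold change 1.92, adjusted p = 0.508), and by slc15a2, a peptide transporter gene (-1.15, adjusted p = 0.609). Of all genes 4.32% reached it on the higher side and 3.55% on the lower. DESeq2 called 1 of the 9 higher (ggt1a), against 0.846% of all genes, and 0 lower, against 0.584%.

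**Figure D2:**
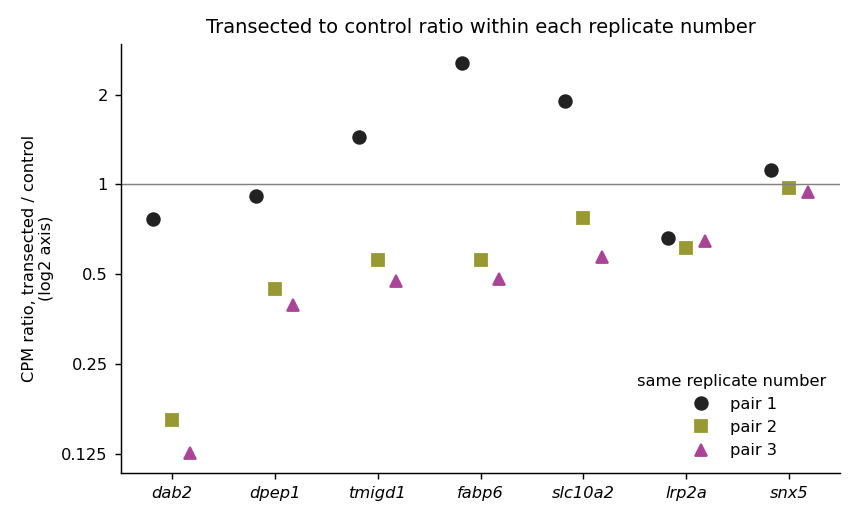
Ratio of transected to control CPM for each uptake gene within each replicate number (log2 axis; the line marks a ratio of 1). In pairs 2 and 3 all 7 genes lie below 1, from 0.125 for dab2 in pair 3 to 0.973 for snx5 in pair 2, while in pair 1 they run from 0.662 for lrp2a to 2.54 for fabp6.

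The plot of ratios within replicate numbers shows how far pair 1 departed from the other pairs. In pair 1, 3 of the 7 genes were lower in the transected library, against 7 of 7 in pair 2 and 7 of 7 in pair 3. The median ratio of all genes tested was 0.999, 1.01 and 1.01 in the 3 pairs. dab2, dpep1 and lrp2a were lower in all 3 pairs, as were 17% of all genes with a ratio in every pair.

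fabp6, which encodes the ileal bile acid binding protein, was by far the most counted of the 7 genes, with 0.0611% to 0.274% of a library's counts. It stood at 2642, 1164 and 646 CPM in transected and 1038, 2082 and 1337 CPM in control replicates 1, 2 and 3. The transected libraries spanned a 4.09-fold range that enclosed all the controls. The means were 1484 ± 1036 and 1486 ± 537 CPM. Its log2 fold change was -0.0018 (SE 0.53) and the adjusted p in edgeR 0.999. Its 95% interval of -1.28 to 1.28 corresponds to fold values from 0.412 to 2.42.

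Without the replicate 1 libraries fabp6 had a log2 fold change of -0.92 (SE 0.42, edgeR adjusted p = 0.359). Its ratios were 2.54, 0.559 and 0.483 in pairs 1, 2 and 3. The list of other lipid carrier genes of its family held 15 names, some of them synonyms of the same gene. They matched 11 genes, of which 7 were tested, and 0 passed in either direction at an unadjusted p under 0.05. fabp2, the enterocyte member of the family, had only 3 to 11 counts per library in this table.

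slc10a2 encodes the apical sodium-dependent bile acid transporter, which brings bile acids from the lumen into the enterocyte where Fabp6 binds them. It stood at 189, 141 and 61.9 CPM in transected and 99.4, 182 and 109 CPM in control replicates 1, 2 and 3. Transected replicate 1 was the highest of all 6 libraries and transected replicate 3 the lowest. The means were 130.4 ± 64.04 and 130.1 ± 45.4 CPM, and the log2 difference was 0.0041 (SE 0.43, 95% interval -1.04 to 1.04, edgeR adjusted p = 0.999). Without the replicate 1 libraries it was -0.53 (SE 0.58, edgeR adjusted p = 0.697).

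Of 26 other bile acid genes 13 were found and 12 tested, and 0 passed over all genes in edgeR. Their median log2 fold change was -0.14, with 4 positive and 8 negative, where 49.5% of all genes tested were negative. At an unadjusted p under 0.05, 2 were lower, against 3.55% of all genes: nr1h5, a nuclear receptor gene related to the bile acid receptor, at 13.4 ± 0.832 against 24.9 ± 5.23 CPM (edgeR adjusted p = 0.317, DESeq2 0.00276), and cyp7a1, the rate-limiting enzyme of bile acid synthesis, at 218 ± 30.6 against 311 ± 71.7 CPM (edgeR adjusted p = 0.574). nr1h4, the bile acid receptor FXR, was 20.9 ± 1.39 against 20.2 ± 2.8 CPM, and slc51a, a subunit of the basolateral bile acid exporter, lay at 83.7 to 125 CPM in transected and 105 to 113 CPM in control guts. fgf19, the hormone gene that FXR induces in the gut, had 39 to 173 counts in transected and 42 to 189 in control libraries.

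tmigd1 encodes an immunoglobulin-domain adhesion protein that in mammals sits at the base of brush border microvilli. It stood at 130, 113 and 60.8 CPM in transected and 89.97, 203 and 128.2 CPM in control replicates 1, 2 and 3. The groups overlapped through replicate 1, which was the lowest control and the highest transected library. The means were 101.1 ± 35.9 and 140 ± 57.4 CPM, and the log2 fold change was -0.47 (SE 0.38, 95% interval -1.39 to 0.44, edgeR adjusted p = 0.833). Without the replicate 1 libraries it was -0.94 (SE 0.44, edgeR adjusted p = 0.385).

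snx5 encodes a sorting nexin that carries receptors out of endosomes together with SNX1 and SNX2, and it was the steadiest of the 7 genes. It stood at 53.3, 59.4 and 58.7 CPM in transected and 47.7, 61.0 and 62.4 CPM in control replicates 1, 2 and 3. The means were 57.1 ± 3.36 and 57.04 ± 8.16 CPM. The log2 fold change of 0.0021 (SE 0.13, edgeR adjusted p = 0.998) has a 95% interval of -0.31 to 0.31, so differences beyond fold values of 0.809 and 1.24 lie outside it.

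Most other sorting nexin and retromer genes lay near a log2 fold change of 0. Of 40 listed, 36 were found and 34 tested, with a median log2 fold change of -0.04, and 0 passed over all genes in edgeR. An unadjusted p under 0.05 was reached by snx10b on the higher side (log2 fold change 1.41, adjusted p = 0.587 in edgeR), against 4.32% of all genes. On the lower side it was reached by snx8a, an endosomal sorting nexin gene, against 3.55%. snx8a stood at 6.99, 2.62 and 2.29 CPM in transected and 13.8, 28.0 and 19.7 CPM in control replicates 1, 2 and 3, with no overlap. Its log2 fold change was -2.36 (SE 0.50). The edgeR adjusted p was 0.371 with all libraries and 0.00799 without the replicate 1 libraries, and DESeq2 gave 0.000195.

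**Figure D3:**
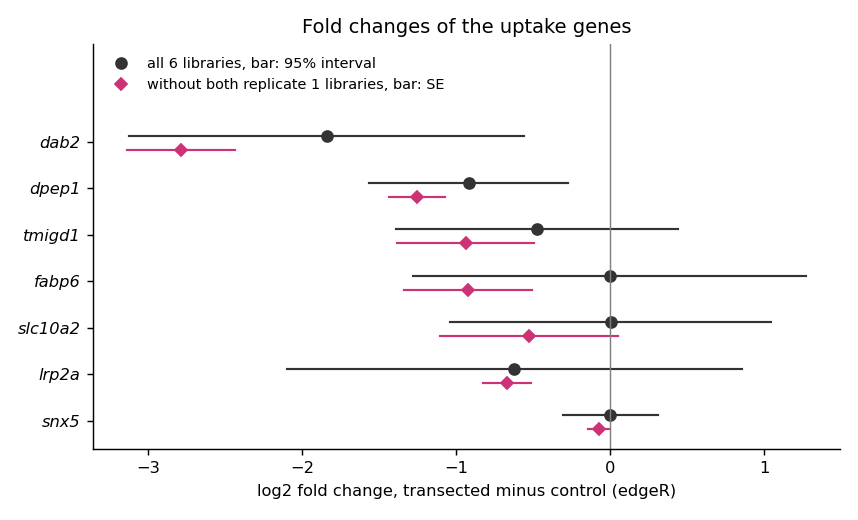
log2 fold change (transected minus control) of each uptake gene in edgeR, with all 6 libraries (black, bars 95% interval) and without both replicate 1 libraries (pink, bars SE). Without replicate 1 dab2 moves from -1.84 to -2.78 and fabp6 from near 0 to -0.92, while snx5 goes to -0.073.

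Leaving out the replicate 1 libraries moved the median log2 fold change of the 7 genes from -0.47 to -0.92, as drawn in the plot of fold changes. That median over all genes tested was then 0.0122. Leaving out control replicate 2 alone moved the median of the 7 the other way, to -0.11, and fabp6 to 0.32. With the replicate block in edgeR 3 of the 7 (dab2, dpep1 and lrp2a) were lower at an unadjusted p under 0.05, against 6.11% of all genes.

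The ratio of one uptake gene to another within a library does not depend on how libraries are scaled, and there dab2 parted from 5 of the other 6 genes. The ratio of dab2 to fabp6 CPM was 0.0446, 0.0443 and 0.0472 in the transected libraries, in the order of their replicate numbers. In the controls it was 0.148, 0.153 and 0.182. In each group the ratio hardly varied, although fabp6 itself spanned a 4.09-fold range in transected guts and a 2.005-fold range in controls. The ratio was 3.54-fold lower in transected guts, a difference of -1.82 on the log2 scale, with SDs of 0.0494 (transected) and 0.158 (control).

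**Figure D4:**
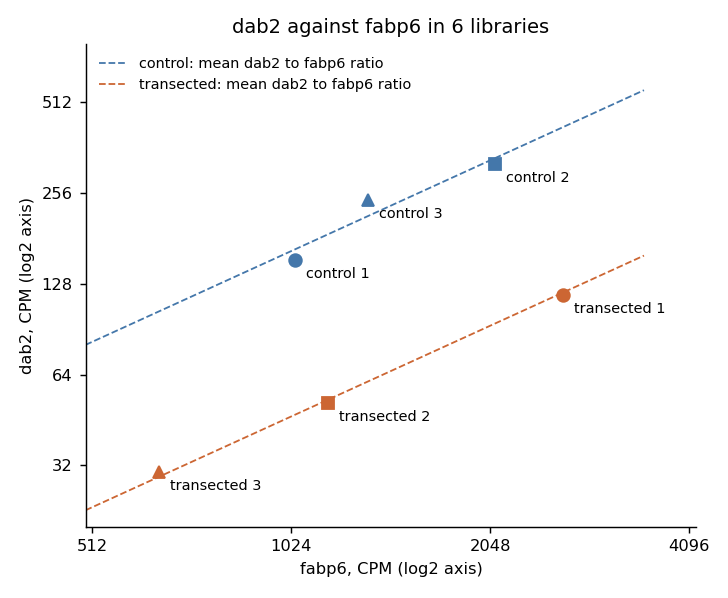
CPM of dab2 (vertical) against CPM of fabp6 (horizontal) in the 6 libraries, both on log2 axes; dashed lines mark the mean dab2 to fabp6 ratio of each group. The 3 transected libraries lie along one line and the 3 controls along another, 3.54-fold higher in dab2 at the same fabp6 level.

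This ratio was singled out after the values of all 21 ratios between the 7 genes had been seen. Of the 21, 6 did not overlap between the groups, and 5 of those 6 were ratios of dab2, to every gene but lrp2a. The sixth was dpep1 to snx5. dab2 and dpep1 did not overlap between the groups on their own, so these ratios largely repeat that result. The share of ratios without overlap among all pairs of genes was not computed. The exact two-sided permutation p for dab2 to fabp6 was 0.1, the smallest that 3 against 3 libraries allow, and 0.35 when adjusted over the 21 ratios. That test moves libraries freely between the groups. With the pairs kept together, an exact sign-flip permutation test gave a two-sided p of 0.25, the smallest that 3 pairs allow. For comparison, the ratio to fabp6 was lower with no overlap for 0.227% of the genes tested other than fabp6, and lower by at least as much as for dab2 for 0.0523%, dab2 being counted in both. The ratio of the bile acid pair differed less between the groups. fabp6 to slc10a2 was 14.0, 8.27 and 10.4 in transected and 10.4, 11.4 and 12.3 in control guts, with overlapping groups. Within groups it varied more, with an SD on the log2 scale of 0.282 against 0.117 for dab2 to fabp6.

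Genes of the same endocytic route outside the 7 showed little difference. Of 55 partners listed (clathrin, its adaptors, the receptor chaperone, endosomal channels and Rab proteins) 46 were found and 42 tested, and their median log2 fold change was -0.05. At an unadjusted p under 0.05 0 were higher and 2 lower, 4.76% of the 42 against 3.55% of all genes. These were ehd3, an endosomal recycling gene, at 7.66 ± 0.526 against 11.9 ± 1.7 CPM (edgeR adjusted p = 0.412), and numb, an endocytic adaptor gene, at 31.1 ± 3.74 against 41.8 ± 2.88 CPM (edgeR adjusted p = 0.469). lrpap1, the chaperone of megalin-type receptors, stood at 16.2, 18.9 and 22.7 CPM in transected and 16.3, 32.8 and 33.0 CPM in control guts. pllp, a membrane protein gene of the enterocyte endosome, stood at 51.2 to 55.5 against 45.4 to 68.5 CPM.

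Genes for what the receptors carry were listed together with genes that handle cobalamin inside the cell and a folate receptor gene. Of this mixed list 0 passed an unadjusted p of 0.05 in either direction in edgeR. Its 24 names, with mut also listed under a synonym, matched 17 genes. Of these 15 were tested, with 2 positive and 13 negative and a median log2 fold change of -0.21. The smallest p on the lower side was that of ambp, a plasma protein gene, at 138 ± 33.0 against 202 ± 48.4 CPM (edgeR adjusted p = 0.660). ambp and rbp4, the plasma retinol carrier gene, also stand in the list of hepatocyte markers, of which all 14 tested were negative. tcn2, the vitamin B12 carrier gene, stood at 255.8 to 318 CPM in transected and 304 to 352 CPM in control guts. In the LDL receptor family, to which megalin belongs, 10 of 21 genes were found and tested. Of these ldlra, the LDL receptor gene, was lower at 144 ± 12.6 against 253 ± 71.1 CPM. The edgeR adjusted p was 0.422 for ldlra with all libraries and 0.0316 without the replicate 1 libraries, and DESeq2 gave 0.0459.

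**Figure D5:**
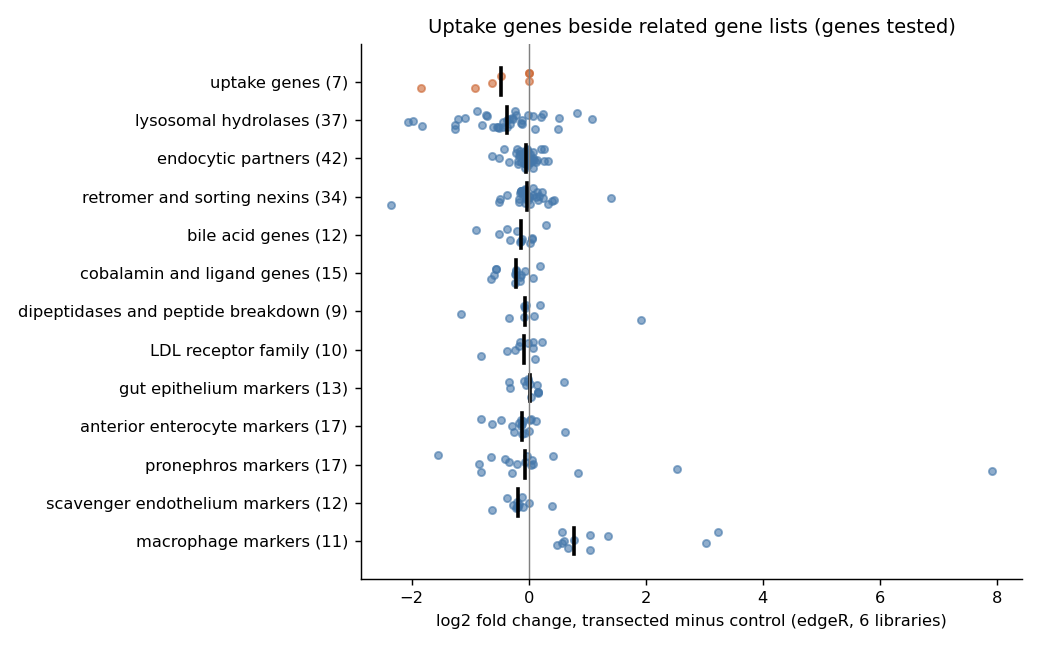
log2 fold change (transected minus control, edgeR with 6 libraries) of each gene tested in the uptake genes (orange) and in related lists (blue), with the number of genes tested in brackets; black bars are medians, points are spread vertically for visibility. The medians are -0.47 for the uptake genes, -0.36 for lysosomal hydrolases, -0.05 for endocytic partners and 0.77 for macrophage markers.

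Lysosomal genes digest, through their products, what the uptake route delivers. Of 49 listed 41 were found and 37 tested, with a median log2 fold change of -0.36. An unadjusted p under 0.05 was reached by 15 on the lower side, against 3.55% of all genes, and by 3 on the higher side, against 4.32%. After adjustment over all genes, 0 of the 37 passed in edgeR. In DESeq2 7 of the 37 were called lower, against 0.584% of all genes, and 1 higher, against 0.846%. In edgeR without the replicate 1 libraries 17 of the 37 were called lower, against 1.5% of all genes, and 0 higher, against 0.866%, and the median was -0.50. ctsl.1 had transected to control ratios of 0.550, 0.137 and 0.112 in pairs 1, 2 and 3, beside 0.765, 0.162 and 0.125 for dab2. man2b1, a lysosomal mannosidase gene, had ratios of 0.688, 0.183 and 0.213, and ctsbb, a cathepsin B gene, stood at 204 ± 52.3 against 799.9 ± 409 CPM (edgeR adjusted p = 0.412, DESeq2 0.000744). Other cathepsin genes went the other way. ctss2.2, a cathepsin S gene, stood at 25.3 ± 4.63 in transected and 14.3 ± 2.1 CPM in control guts (log2 fold change 0.82, edgeR adjusted p = 0.387, DESeq2 0.0200). ctsk, the cathepsin K gene, stood at 41.8 ± 14.8 and 19.8 ± 4.4 CPM (log2 fold change 1.08, edgeR adjusted p = 0.473, DESeq2 0.0571), and neither of these overlapped between the groups. The share of all genes without overlap on the higher side was not counted.

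The other related lists gained fewer calls without the replicate 1 libraries. In edgeR, adjusted over all genes, 2 of the 34 sorting nexins were then called lower (snx8a and snx2). So were 1 of the 15 cobalamin and ligand genes (folr, a folate receptor gene) and 1 of the 10 in the LDL receptor family (ldlra). Of all genes 1.5% were called lower in that fit. Endocytic partners, bile acid genes, peptide breakdown genes and lipid carriers had 0. An unadjusted p under 0.05 in either direction was then reached by 8 of the 42 endocytic partners (7 lower), 7 of the 34 sorting nexins (5 lower), 5 of the 15 cobalamin and ligand genes (5 lower) and 4 of the 12 bile acid genes (4 lower), against 19.2% of all genes. It was reached by 4 of the 9 peptide breakdown genes (3 lower) and 2 of the 7 lipid carriers (2 lower). Among the marker lists, against the same 19.2%, it was reached by 5 of 16 pronephros markers (3 lower), 4 of 12 endothelium (3 lower) and 9 of 11 macrophage markers (0 lower). It was also reached by 4 of 14 hepatocyte (4 lower), 3 of 13 gut epithelium (3 lower) and 3 of 17 anterior enterocyte markers (3 lower). For epidermis and muscle markers it was 6 of 20 (0 lower), and for exocrine pancreas markers 1 of 19 (0 lower).

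Other cells of the dissected tissue can also express some of the 7 genes. dab2 is used by scavenger endothelium and by some macrophages. Of 14 endothelium markers (labelled scavenger endothelium in the plot of lists) 13 were found and 12 tested. Most, kdr and kdrl among them, mark vessels in general rather than scavenger endothelium. The median log2 fold change of the 12 was -0.19. The summed level of the list was 174 to 220 CPM in transected and 231 to 249 CPM in control guts. At an unadjusted p under 0.05 0 were higher and 2 lower, 16.7% of the 12 against 3.55% of all genes. kdr, a vascular growth factor receptor gene, stood at 18.1, 16.8 and 14.1 CPM in transected and 28.0, 22.2 and 25.4 CPM in control guts (log2 fold change -0.63, edgeR adjusted p = 0.412, DESeq2 0.0350). kdrl, a related receptor gene, stood at 51.9 ± 6.02 against 62.5 ± 2.0 CPM (log2 fold change -0.27, edgeR adjusted p = 0.633), and neither overlapped between the groups. The scavenger receptor genes of the list overlapped between the groups. stab1 stood at 11.0 to 15.4 against 12.997 to 18.6 CPM (edgeR unadjusted p = 0.330). stab2 stood at 2.19 to 4.096 against 1.68 to 5.83 CPM (edgeR unadjusted p = 0.996), while lyve1b had 0 counts in every library. The 20 names of macrophage markers, with mfap4 also listed under a synonym, matched 15 genes. Of these 11 were tested, all 11 positive, and 8 were higher at an unadjusted p under 0.05, against 4.32% of all genes. DESeq2 called 6 of the 11 higher, against 0.846% of all genes. Without the replicate 1 libraries edgeR called 5 of the 11 higher, against 0.866% of all genes. il1b, an inflammatory cytokine gene, stood at 17.3 ± 6.16 against 1.84 ± 0.443 CPM (edgeR adjusted p = 0.121, DESeq2 2.3e-16). mpeg1.2, a macrophage perforin gene, stood at 31.0 ± 7.03 against 3.8 ± 1.58 CPM (edgeR adjusted p = 0.121, DESeq2 1.3e-16), while mpeg1.1 had 0 counts in every library. The summed level of the macrophage markers was 152 to 188 CPM in transected and 68.7 to 83.2 CPM in control guts. The part of endothelium and macrophage RNA in the dab2 values was not tested.

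Markers of gut epithelium in general had a median near 0. Of 18 listed 15 were found and 13 tested, with a median log2 fold change of 0.03 and 0 in either direction at an unadjusted p under 0.05. Their summed level was 10816 to 13154 CPM in transected and 10322 to 14583 CPM in control guts. Anterior, lipid-absorbing enterocyte markers (18 of 20 found, 17 tested) had a median of -0.12, also with 0 in either direction. Their summed level was 52205 to 63325 CPM in transected and 67433 to 76611 CPM in control guts, without overlap. Singly, 1 of the 17 was lower in every transected library than in any control, against 6.38% of all genes. The sum leans on strongly counted genes such as apoa1b, at 5405 to 9493 against 6478 to 18119 CPM. Its pair ratios were 0.524, 0.834 and 0.495, beside 0.562, 0.917 and 0.584 for apoa2, a hepatocyte marker. Tissue that can adhere to the gut varied more between libraries. All 14 hepatocyte markers tested (14 of 16 found) had a negative log2 fold change, with a median of -0.58. Their summed level was 7022 to 13030 CPM in transected and 8786 to 21073 CPM in control guts. For exocrine pancreas markers it was 63073 to 129812 and 33768 to 113345 CPM, and for epidermis and muscle markers 5670 to 10735 and 2962 to 11215 CPM. The part of these tissues in the uptake gene values was not tested.

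The genes whose pattern over the 6 libraries was most like the mean of the 7 were sought among 3454 other named genes with an average log2 CPM of at least 5. They were aox6, an aldehyde oxidase gene (Pearson's r = 0.988), tpte, a membrane phosphatase gene (0.987), vegfab, a vascular growth factor gene (0.984), slc15a2, a peptide transporter gene (0.980), and slc6a18, an amino acid transporter gene (0.975). These values describe 6 libraries that share their scaling and their replicate numbers, and 1.16% of the genes ranked reached 0.9. slc15a2 stood at 252, 126 and 80.5 CPM in transected and 245, 462 and 309 CPM in control replicates 1, 2 and 3. slc6a18 stood at 75.4, 34.8 and 17.6 CPM in transected and 72.9, 160 and 116 CPM in control guts.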

How the data were processed

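The authors deposited raw counts (whole numbers, not normalized) for each gene symbol and library. Per the labels' protocols, RNA from pooled guts went into stranded TruSeq mRNA libraries, read as 100 bp paired ends, checked with FastQC 0.11.8 and aligned to danRer11. For the aligner, counting tool, strand setting and annotation, the value is not given in the sources used here.

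Low genes were removed by filterByExpr (minimum count 10, minimum total 15). The rest were scaled by TMM and fitted with edgeR 4.0.16 in R 4.3.3 (quasi-likelihood, robust, group alone), two-sided, with Benjamini-Hochberg adjustment over all genes and a threshold of 0.05. The SE is the log2 fold change over the root of F, and 95% intervals use the moderated degrees of freedom. DESeq2 1.42.0, limma-voom (limma 3.58.1), other scalings and filters, the replicate block and left-out libraries were alternatives, 16 in all. The pipeline was tested on simulated counts with 200 changed genes.

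Same-numbered libraries deviated together from their group means over 11466 genes (r = 0.450, 0.512 and 0.177), so the numbers were treated as pairs. Libraries with different numbers gave r from -0.527 to 0.118. The highest, transected replicate 2 with control replicate 3, was not far below pair 3. Deviations from the same group mean constrain each other, so these values are not independent. The labels do not say what the numbers mark. A second number in the titles is shared within pairs 2 and 3. It is missing from the title of transected replicate 1, so pair 1 rests on the replicate number alone. Within-group counts differed by more than sampling noise (chi-square per degree of freedom 26.4 to 243).

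The uptake genes and all lists were chosen with earlier results of these data known. All 7 uptake genes are named. List genes came from the rule of up to 2 per direction with the smallest p and a log2 CPM of at least 3. lrpap1, pllp, tcn2, slc51a, fgf19, fabp2, stab1, stab2, lyve1b, slc13a3, slc22a2, slc13a1, slc6a19a.1, slc12a10.3, wt1b, rbp4, snx2, folr, nphs1, slc12a3, slc4a4a, slc20a1a, mpeg1.1, ggt1a, snx10b, apoa1b, apoa2, ctsl.1 and lgmn were added after their values were seen. Of the listed names, 12 were matched through a synonym in a RefSeq table (assembly GRCz12tu), some of them to a gene already listed under its own symbol. Most-like genes were ranked on log2 CPM with a prior count of 2.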

Additional observations from a re-analysis of the deposited data

How the results depend on the processing

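The median log2 fold change of the 7 uptake genes stayed negative under all 16 alternatives and within the spread between replicates, from -0.73 to -0.11 with single libraries left out. The number of uptake genes called lower, 0 in edgeR, was 1 in DESeq2 (dab2), 2 in DESeq2 with the replicate block (dpep1 and lrp2a) and 1 without both replicate 1 libraries (dpep1). It was 0 with any single library left out, and 0 were called higher under any alternative. Over all genes, 2 were called higher and 0 lower in edgeR, against 97 and 67 in DESeq2, 164 and 124 in DESeq2 with the replicate block, 3 and 1 in edgeR with the replicate block, 0 and 0 in limma-voom, 99 and 172 without both replicate 1 libraries, and 0 to 4 and 0 to 1 with single libraries left out. The cause was not tested.

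dab2, dpep1 and tmigd1 kept a negative sign under all alternatives. The other 4 changed sign under some. lrp2a ran from -1.37 to 0.076 with single libraries left out, the positive value being without control replicate 1. fabp6 ran from -0.73 to 0.36 with single libraries left out, was 0.024 with upper-quartile scaling, 0.052 with library size alone and 0.0020 with the stricter filter. slc10a2 ran from -0.37 to 0.34, and was -0.0076 with DESeq2 size factors, -0.0078 in DESeq2, -0.093 in limma-voom, -0.093 in edgeR and -0.10 in DESeq2 with the replicate block, and -0.53 with both replicate 1 libraries left out. snx5 ran from -0.11 to 0.072, and was -0.0081 with DESeq2 size factors, -0.0080 in DESeq2 and -0.073 without both of the replicate 1 libraries. Scaling moved the median of all genes by at most 0.0101. For the dab2 to fabp6 ratio the exact permutation p was 0.1, and 0.25 with the pairs kept, an alternative chosen after seeing the data. These are the smallest values that 3 against 3 libraries and 3 pairs allow. Neither test could reach 0.05, so they do not show whether the ratio depends on the pairing. The 7 genes had 148 counts or more per library, and how far depth or the number of libraries limits the precision was not compared.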

Other observations

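Of 11465 other genes tested, 26 had ratios to fabp6 whose transected values all lay below the control values, a list drawn up after the dab2 ratio had been seen. The 6 largest differences on the log2 scale were those of snx8a (-2.29), ctsl.1 (-2.12), si:dkey-194e6.1 (-2.03), cyp2k6 (-1.95), si:dkey-24p1.1 (-1.90) and dab2 (-1.82). Lysosomal genes on the list were ctsl.1, ctsbb (-1.65), man2b1 (-1.56), scpep1 (-1.08) and cpvl (-0.99), the last 2 encoding serine carboxypeptidases. Both transporter genes that most resembled the uptake genes were on it too, slc6a18 (-1.44) and slc15a2 (-1.08). aox6, tpte and vegfab, which resembled the uptake genes more closely, were not. The mean pattern of the uptake genes includes dab2 and fabp6, so being on both lists is not separate evidence. The within-group SD of the ratio, over both groups, was 0.117 for dab2, 0.117 for slc6a18, 0.141 for slc15a2, 0.192 for ctsl.1 and 0.246 for snx8a, and 0.201 to 0.8001 for the other 21 genes.

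tdo2b, a tryptophan dioxygenase gene, was also on the list, with a log2 ratio difference of -1.63. It stood at 129, 75.1 and 74.6 CPM in transected and 224, 357 and 391 CPM in control replicates 1, 2 and 3.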
